A study of Drosophila melanogaster with 4 samples.

Results

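Genes of enterocyte identity and the brush border, 6 in all, were followed in Drosophila melanogaster intestines with RNAi against CG5789 and in wild-type intestines. Of these, nub, Hnf4 and GATAe encode transcription factors, Myo31DF and Myo61F encode class I myosins, and mex1 encodes a small gut protein. They were taken by symbol, and all 6 were found among the 17510 genes of the deposited count table. The CG5789 RNAi group had 2 libraries from adult flies with an RNAi transgene from the NIG collection, and the wild-type group had 2 libraries from adult flies. Per the labels' protocols, total RNA came from guts freed of crop and Malpighian tubules. The driver of the RNAi, the age and sex of the flies and the number of guts per library are not named in the labels, and none of the libraries is described as carrying a control transgene, so an effect of these cannot be told apart from that of the knockdown. Libraries are called RNAi 1, RNAi 2, wild type 1 and wild type 2, numbered within a genotype by order of deposit. The labels do not say whether libraries of a genotype came from separate flies, so the variation behind the p-values may be technical.

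Enterocytes are the large polyploid cells that make up most of the midgut epithelium, and they carry an apical brush border of microvilli through which nutrients are taken up. They arise from stem cells by way of enteroblasts, and they keep their identity through transcription factors, among them the POU factor Nubbin (also called Pdm1), the endodermal GATA factor GATAe and the nuclear receptor Hnf4. Class I myosins link the actin core of a microvillus to the membrane around it, and Myo31DF is the gene whose regulatory region drives the enterocyte reporter commonly called Myo1A-GAL4. Whether enterocyte identity and brush border genes differ between CG5789 knockdown and wild-type guts is the question the values below address.

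None of the 6 genes differed between the genotypes beyond the spread between libraries. The fitted fold change, RNAi relative to wild type, ran between 0.795 for GATAe and 1.35 for nub, and for all 6 genes the ranges of the RNAi and wild-type libraries overlapped. What did move, in both genotypes, was nub, Myo31DF and Myo61F together: each was at least 1.86 times as high in RNAi 2 as in RNAi 1 and in wild type 2 as in wild type 1, whereas mex1 and Hnf4 varied by at most 1.28 times between libraries of a genotype.

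Total counts were 30252763 and 23674485 in RNAi 1 and 2, and 30537063 and 11294882 in wild type 1 and 2. The targeted gene, Cftr (CG5789), had 13.8 and 17.5 CPM (counts scaled to a common library size, with the TMM correction for library composition) in RNAi 1 and 2, against 13.8 and 43.4 CPM in wild type 1 and 2, so that RNAi 1 was not below wild type 1. The leading principal component of log2 CPM, with 52.6% of the variance, set RNAi 1 and wild type 1 (here set 1) apart from RNAi 2 and wild type 2 (set 2). No label names a batch, and the sets come from the counts alone, so differences between the sets are given as a description with no test. For Cftr the log2 fold change was -0.86 (SE 0.57, edgeR adjusted p = 0.999993), RNAi over wild type was 1.01 (exact interval 0.875 to 1.16) in set 1 and 0.403 (0.353 to 0.460) in set 2, and its exons share 192 bases with ana1 on the opposite strand. Every direction below is therefore one between libraries as labelled. In bulk RNA, fewer enterocytes and less RNA of a gene per enterocyte cannot be told apart.

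The nub gene, FBgn0085424 at 2L:12587625-12628135 on the plus strand (BDGP6, here and below), encodes the POU-domain factor whose long form marks enterocytes in the midgut. It had 164 and 399.5 CPM in RNAi 1 and 2, against 146 and 272 CPM in wild type 1 and 2. RNAi 2 was the highest library and wild type 1 the lowest, and each RNAi library lay above the wild-type library of its own set, while RNAi 1 lay below wild type 2. Between genotypes the log2 fold change was 0.43 (SE 0.55, 95% interval -0.86 to 1.72), with an edgeR quasi-likelihood p of 0.458 and an adjusted p of 0.999993, the adjusted value of all 6 genes. Within set 1 RNAi over wild type was 1.12 (exact interval 1.08 to 1.17), and within set 2 it was 1.47 (1.41 to 1.53), where the intervals cover counting error only. Fitted with a set term, the log2 fold change was 0.36 (SE 0.18, interval -0.01 to 0.73) and the edgeR adjusted p 0.306; over all other settings tried the adjusted p ran between 0.0979 and 0.999993. Of the 6 genes, nub and Myo61F were the pair with an RNAi library above wild type in both sets, 2 of 6, beside 30.5% of all genes tested. The counts are per gene, so the short and long forms of nub, annotated in 3 transcripts, were not separated.

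The GATAe gene, FBgn0038391 at 3R:16009105-16019133 on the plus strand, encodes a GATA factor of the endoderm that gut stem cells and enterocytes both use. It had 99.6 and 164 CPM in RNAi 1 and 2, against 172 and 159.9 CPM in wild type 1 and 2. The other 3 libraries lay close together, and RNAi 1 alone was low. For GATAe the log2 fold change was -0.33 (SE 0.41, interval -1.29 to 0.63), with an edgeR quasi-likelihood p of 0.444, and without RNAi 1 it was -0.01, so the lower mean rested on that library. Within set 1 RNAi over wild type was 0.581 (0.555 to 0.608), and within set 2 it was 1.03 (0.970 to 1.09). With the set term the log2 fold change was -0.37 (SE 0.19, interval -0.77 to 0.02) and the edgeR adjusted p 0.322, within a span of 0.235 to 0.999993 over the settings tried.

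The Hnf4 gene, FBgn0004914 at 2L:8687226-8709611 on the minus strand, encodes the fly counterpart of the mammalian hepatocyte nuclear factor 4 receptors, which in fly larvae drives the breakdown of fatty acids for energy. It had 73.3 and 94.0 CPM in RNAi 1 and 2, against 84.9 and 90.9 CPM in wild type 1 and 2. The wild-type libraries lay between the RNAi libraries, and all 4 stood close to each other. Over both genotypes its log2 fold change was -0.07 (SE 0.37, interval -0.94 to 0.80), with an edgeR quasi-likelihood p of 0.851, and its sign turned with library size alone, at 0.02. The exons of Hnf4 share 180 bases with an antisense RNA gene, asRNA:CR44992, which had 142 and 68 counts in RNAi guts and 150 and 23 in wild type, against 1013 to 2455 counts for Hnf4. Whether counting used strand is not stated in the labels, so reads of the shared stretch cannot be assigned.

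The class I myosin genes varied more between the library sets than between the genotypes. Myo31DF, FBgn0086347 at 2L:10491814-10506779 on the minus strand, encodes a myosin I of the brush border that also sets the left-right asymmetry of fly organs. It had 85.5 and 260.5 CPM in RNAi 1 and 2, against 86.5 and 227 CPM in wild type 1 and 2. Both set 1 libraries were low and both set 2 libraries high, and within a set the genotypes lay near each other. Its fitted log2 fold change was 0.14 (SE 0.66, interval -1.41 to 1.69), with an edgeR quasi-likelihood p of 0.836. RNAi over wild type stood at 0.988 (0.935 to 1.04) in set 1 and 1.15 (1.09 to 1.20) in set 2. An antisense gene that shares 479 exon bases with Myo31DF, asRNA:CR44224, had 4 counts in RNAi 1 and none in the other libraries.

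Myo61F, FBgn0010246 at 3L:1318480-1329617 on the plus strand, encodes the other brush border myosin I. It had 453 and 984 CPM in RNAi 1 and 2, against 441 and 857 CPM in wild type 1 and 2. The order of the libraries was nearly that of Myo31DF, with set 2 above set 1 in both genotypes. For Myo61F the log2 fold change was 0.15 (SE 0.54, interval -1.12 to 1.41), with an edgeR quasi-likelihood p of 0.792, and RNAi over wild type was 1.03 (1.003 to 1.05) in set 1 and 1.15 (1.12 to 1.18) in set 2. Per kilobase of exon, Myo61F stood at 5.79 and 4.12 times Myo31DF in RNAi 1 and 2, and at 5.57 and 4.12 times in wild type 1 and 2. The balance of the myosin pair thus differed between the sets and was close to equal between genotypes within a set.

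The mex1 gene, FBgn0004228 at 3L:15517424-15519592 on the minus strand, was found through its strong expression in the midgut, and its regulatory region is used to drive transgenes in enterocytes. It had 1064 and 1081 CPM in RNAi 1 and 2, against 929.6 and 1172 CPM in wild type 1 and 2. The RNAi libraries lay between the wild-type libraries. The fitted log2 fold change was 0.03 (SE 0.38, interval -0.87 to 0.92), with an edgeR quasi-likelihood p of 0.942. Within set 1 the RNAi library was at 1.14 times wild type (1.13 to 1.16) and within set 2 at 0.922 times (0.903 to 0.942), so the direction differed between the sets by more than counting error.

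**Figure D1:**
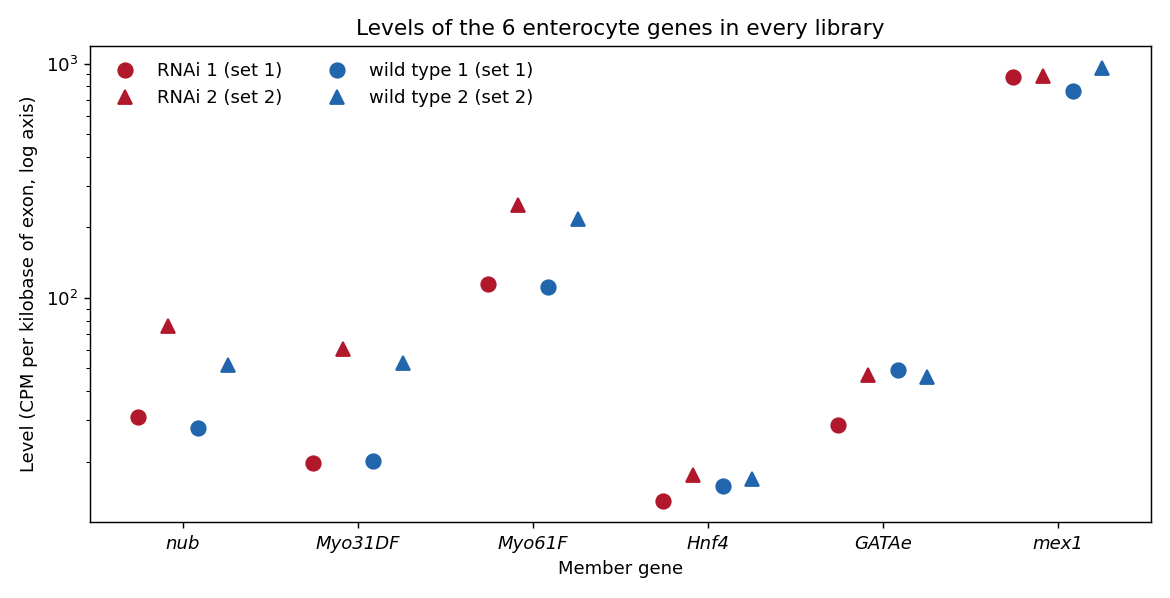
Level of each of the 6 genes in every library, in CPM per kilobase of merged exon length on a log axis; RNAi libraries are red, wild-type libraries blue, circles are set 1 and triangles set 2. For nub, Myo31DF and Myo61F both triangles lie above both circles, whereas for mex1 and Hnf4 the 4 libraries lie close together and for GATAe RNAi 1 alone is low.

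**Figure D2:**
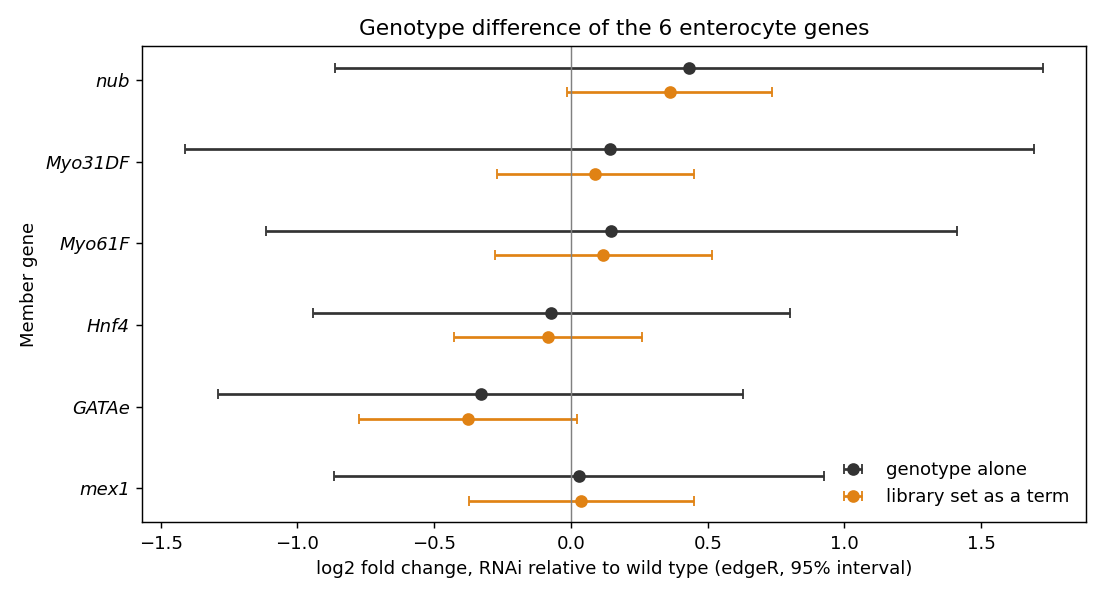
The log2 fold change of each gene, RNAi relative to wild type, with its 95% interval, from edgeR with genotype alone (black) and with the library set as a term (orange). All 12 intervals include 0, and those with the set term are narrower, from -0.01 to 0.73 for nub and from -0.77 to 0.02 for GATAe.

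Across all genes tested, edgeR called 12 of 9637 at an adjusted p under 0.05, or 0.125%, and 0 of the 6 enterocyte genes. At an unadjusted p under 0.05 there were 0 of 6 by edgeR, DESeq2 and limma-voom alike, and DESeq2 and limma-voom also called 0. With the set term the log2 fold change was 0.09 (SE 0.18) for Myo31DF, 0.12 (SE 0.20) for Myo61F, -0.08 (SE 0.17) for Hnf4 and 0.04 (SE 0.20) for mex1, each with an edgeR adjusted p between 0.834 and 0.963. With the set as a term edgeR called 684 genes, 332 higher and 352 lower, or 7.1%, and again 0 of the 6, with 0 at an unadjusted p under 0.05; with that term DESeq2 called 0 with 0 at an unadjusted p under 0.05, and limma-voom called 0 but had nub and GATAe at an unadjusted p under 0.05. Since the counts themselves defined the sets, and that fit leaves 1 residual degree of freedom, p-values with that term can be too small. RNAi and wild-type libraries did not overlap for 0 of the 6 genes, beside 24.2% of all genes tested. The median log2 fold change of the 6 was 0.09, beside 0.01 over all genes tested. The intervals of the fit on genotype alone still allow a change of up to 1.72 on the log2 scale for nub and of -1.41 for Myo31DF, so these data do not show that the levels were equal.

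**Figure D3:**
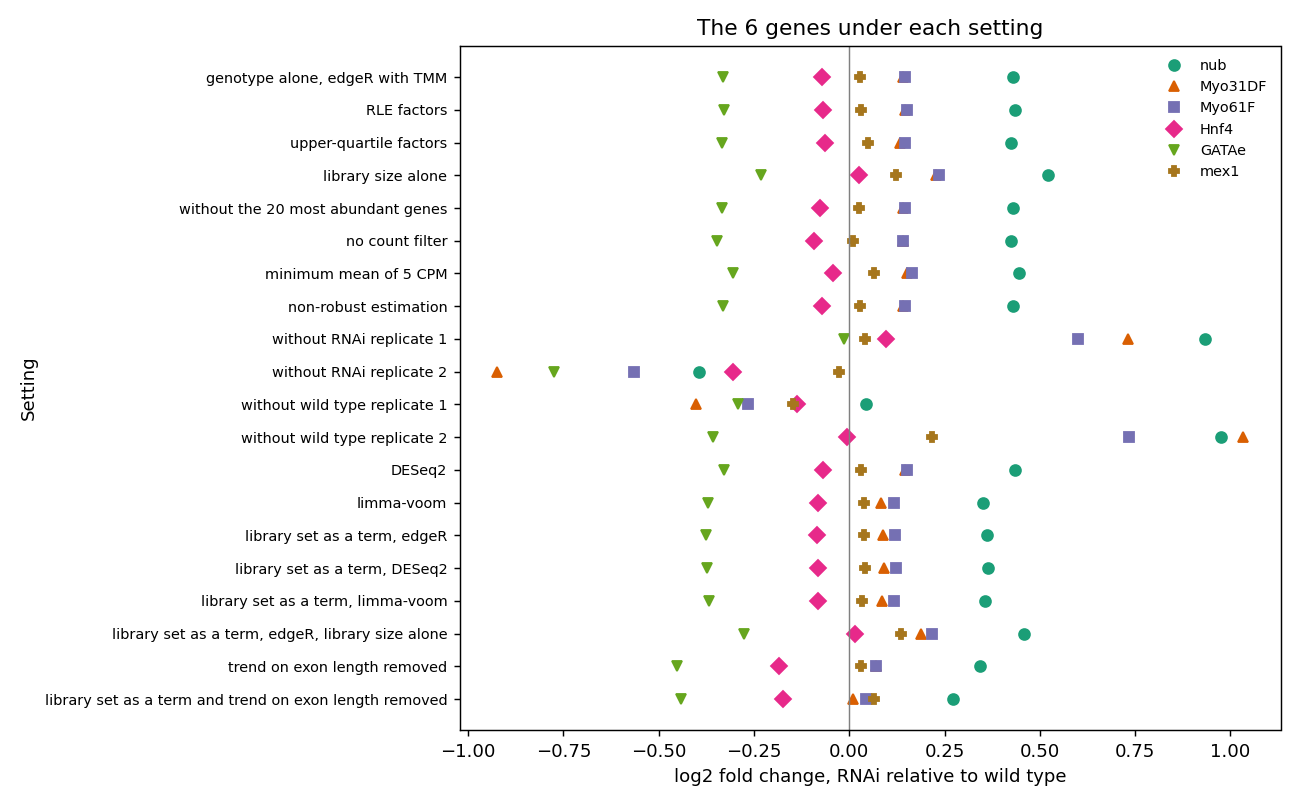
The log2 fold change of each gene, RNAi relative to wild type, on the horizontal axis under each setting tried, which run down the page. The spread is widest where 1 library is left out: Myo31DF ranges from -0.92 without RNAi 2 to 1.03 without wild type 2, while mex1 stays between -0.15 and 0.22.

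The direction of the myosin and nub differences turned on single libraries, as leaving 1 out puts both sets in one genotype against a single set in the other. Without RNAi 2 the log2 fold change was -0.92 for Myo31DF, -0.56 for Myo61F and -0.39 for nub, and without wild type 2 it was 1.03, 0.73 and 0.97 for the same genes. No gene of the 6 was called by edgeR in any of these fits.

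In level per kilobase of exon the genes kept a partly fixed order. The mex1 gene was the highest in every library, with 872 and 886 CPM per kilobase in RNAi 1 and 2 and 763 and 961 in wild type 1 and 2, above 98.0% to 98.9% of the 9585 tested genes with an annotated exon length. Myo61F came next in every library, with 114.6 and 249 CPM per kilobase in RNAi guts and 111 and 217 in the wild-type libraries. Hnf4 was the lowest in every library, with 13.6 and 17.5 CPM per kilobase in RNAi guts and 15.8 and 16.9 in the wild-type libraries, and it still lay above 66.2% to 70.7% of those genes. Between them, nub, GATAe and Myo31DF changed places from library to library and did not differ beyond their spread, which was 27.7 to 75.7, 28.5 to 49.1 and 19.8 to 60.3 CPM per kilobase over all 4 libraries. With the longest transcript as the length in place of the merged exons, Hnf4 had 21.9 and Myo31DF 20.03 CPM per kilobase in wild type 1, so that the lowest place there depended on the length used.

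The ratios between the identity factors varied between libraries. Per kilobase, nub stood at 1.09 and 1.61 times GATAe in RNAi 1 and 2, against 0.565 and 1.13 times in wild type 1 and 2. The ratio was higher in the RNAi library of each set, though RNAi 1 lay below wild type 2. GATAe stood at 2.09 and 2.69 times Hnf4 in RNAi guts and at 3.11 and 2.71 times in the wild-type libraries. The set 2 libraries were about equal in that ratio, and RNAi 1, the library low in GATAe, was the lowest. The ratios are given as a description, with no test.

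Set 2 libraries held more nub, Myo31DF and Myo61F than set 1 libraries in both genotypes. Myo31DF was at 3.05 times in RNAi 2 relative to RNAi 1 and at 2.63 times in wild type 2 relative to wild type 1. The corresponding ratios were 2.43 in RNAi and 1.86 in wild type for nub, and 2.17 in RNAi and 1.94 in wild type for Myo61F. For GATAe they were 1.65 in RNAi and 0.932 in wild type, for Hnf4 1.28 in RNAi and 1.07 in wild type, and for mex1 1.02 in RNAi and 1.26 in wild type. Thus 3 of the 6 genes were at least 1.5-fold higher in set 2 in both genotypes, beside 14.5% of all genes tested. The class I myosin genes and nub made up these 3, while GATAe was high in RNAi 2 relative to RNAi 1 only.

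The ratio between the sets went with gene length, and several muscle markers were higher in set 2. Over 6721 genes that averaged 5 CPM or more, the ratio of set 2 to set 1 had a Spearman's rho with merged exon length of 0.669 in RNAi and 0.672 in wild type, a description across genes that share the libraries. The median ratio was 0.571 in RNAi and 0.596 in wild type for genes under 1 kb, and 1.69 in RNAi and 1.62 in wild type for genes of 4 to 5 kb. The merged exons of Myo31DF, Myo61F and nub measure 4318, 3955 and 5278 bases, those of GATAe, Hnf4 and mex1 3493, 5377 and 1219. Within its own length class the set ratio of Myo31DF lay above that of 95.4% of genes in RNAi and 90.5% in wild type, that of Myo61F above 81.5% in RNAi and 80.1% in wild type, and that of nub above 92.2% in RNAi and 74.1% in wild type. The Hnf4 gene, as long as nub, lay above 41.5% in RNAi and 16.8% in wild type, and the short mex1 gene above 68.7% in RNAi and 89.1% in wild type. Between genotypes within a set, length had a Spearman's rho of 0.098 in set 1 and 0.133 in set 2. With the trend on exon length removed from each library, an alternative chosen after this relation was seen, the log2 fold change of RNAi relative to wild type was 0.34 for nub and -0.45 for GATAe, and edgeR called neither (adjusted p = 0.999574 for each).

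**Figure D4:**
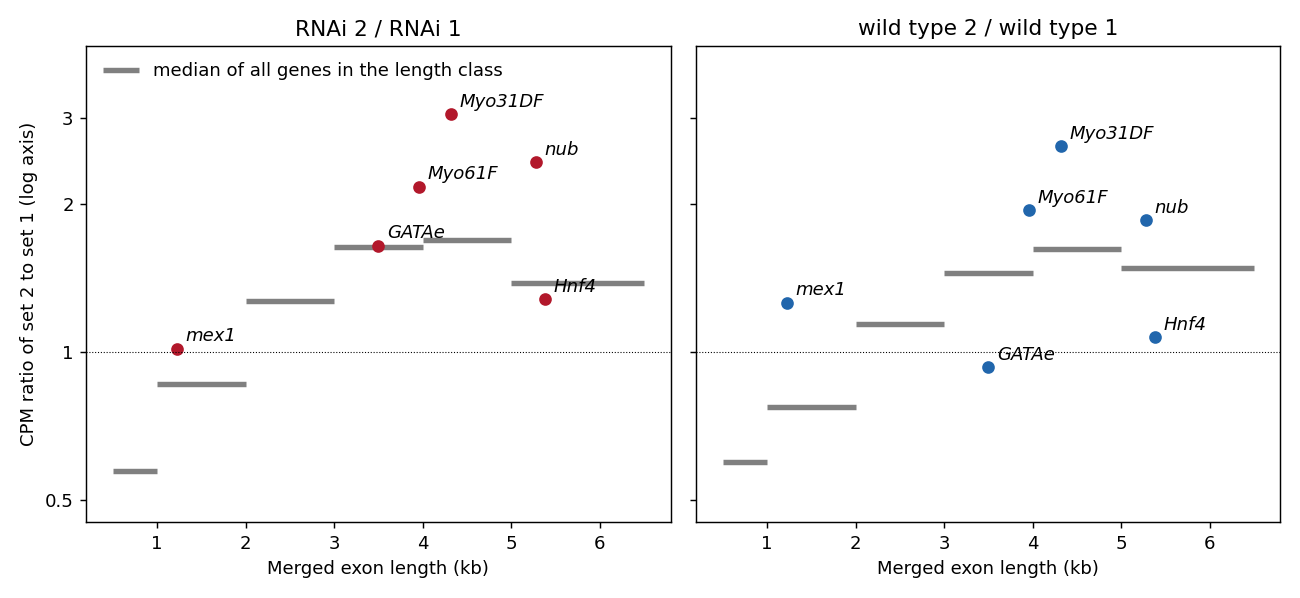
Ratio of set 2 to set 1 in CPM, on a log axis, against merged exon length in kilobases for the 6 genes (points) in RNAi on the left and wild type on the right; grey bars are the medians of all genes in each length class, the last of which has no upper limit. Myo31DF, Myo61F and nub lie above the bar of their class in both panels, while Hnf4 lies below it in both.

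Visceral muscle genes, summed over 11 markers, had 606 and 1203 CPM in RNAi 1 and 2, against 841 and 1727 CPM in wild type 1 and 2, and none of the 11 was at 0. Of the 11 muscle markers 7 were at least 1.5-fold higher in set 2 in both genotypes, beside 14.5% of all genes tested. The share among genes of like length was not taken, so this count cannot set muscle apart from length. The part of length and of muscle in the set pattern was not tested. Of the 11, 9 were lower in RNAi in both sets, beside 30.9% of all genes tested, and up and sls passed as lower with the set term, 2 of 11, beside 3.65% of all genes. In the other cell types of the epithelium, 7 progenitor markers summed to 50.8 and 44.4 CPM in RNAi guts and 35.2 and 33.5 CPM in wild type. Of the 7, 6 were higher in RNAi in both sets, beside 30.5% of all genes tested, and 1 was lower in both. Sox21a, which is also on the list of identity regulators below, was the 1 of 7 that passed as higher with the set term, beside 3.45% of all genes. The 14 enteroendocrine markers summed to 357 and 356 CPM in RNAi guts and 383 and 353 CPM in wild type, with 3 higher and 2 lower in RNAi at that threshold, beside 7.1% of all genes in either direction. The 6 enterocyte genes, of which gut stem cells also use GATAe, summed to 1939 and 2983 CPM in RNAi guts, against 1860 and 2779 CPM in wild type. Among markers of other tissues, Uro of the Malpighian tubule had 10 and 0 counts in RNAi guts and 26 and 1 in wild type, and Hml of haemocytes had 28 and 8 counts in RNAi guts and 8 and 3 in wild type. NimC1, a phagocytosis receptor gene of haemocytes, had 131 and 71 counts in RNAi guts, against 9 and 8 in wild type. It rose 7.83-fold with the set term (edgeR adjusted p = 6.30e-05, without the term 0.302). Wild type 1 fell short of the count filter, so NimC1 was kept only by way of its RNAi libraries. A gene kept in that way can hardly come out lower, so its call as higher carries no weight. Haemocyte markers, NimC1 included, summed to 7.02 and 5.10 CPM in RNAi guts, against 1.35 and 2.33 CPM in wild type, hindgut markers to 4.04 and 2.20 CPM in RNAi guts, against 2.84 and 1.97 CPM in wild type, and tracheal markers to 6.25 and 8.60 CPM in RNAi guts, against 4.36 and 8.35 CPM in wild type. Malpighian tubule markers summed to 61.1 and 97.0 CPM in RNAi guts and 84.3 and 106 CPM in wild type. Copper cell markers, including the acid region gene Vha100-4, summed to 195 and 319 CPM in RNAi guts and 283 and 298 CPM in wild type.

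Genes with the most similar profile over the 4 libraries were found by the root mean square difference of centred log2 CPM, over genes that averaged 5 CPM or more. For Myo61F the closest was jar, the gene of myosin VI, at 0.00519, followed by CG8379 at 0.0194. The jar gene had 102 and 220.1 CPM in RNAi 1 and 2, against 98.5 and 191 CPM in wild type 1 and 2, so it too was about equal between genotypes and high in set 2. For Myo31DF the closest were Hem, a gene of the WAVE complex that builds branched actin, at 0.0210 and RhoGAP92B at 0.0262, and for nub CG31342 at 0.0395 and CG5246 at 0.0399. For mex1 they were Nup358, a nucleoporin gene, at 0.0124 and CtsL1, a cathepsin L gene, at 0.0212. For Hnf4 they were CG11309 at 0.0225 and GCS1, a glucosidase gene of glycoprotein trimming, at 0.0234, and for GATAe CG8888 at 0.0245 and CG14857 at 0.0354. Among the 6 themselves the nearest pair was nub and Myo61F at 0.136, followed by Hnf4 and mex1 at 0.157, and the farthest was Myo31DF and mex1 at 0.674. Many other genes lay nearer than these partners. By nearness Myo61F ranked 102 for nub and nub 313 for Myo61F, while mex1 ranked 919 for Hnf4 and Hnf4 715 for mex1. These likenesses rest on 4 libraries and carry no test.

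Other regulators of enterocyte identity went both ways. Of 18 such genes 17 were tested, and with the set as a term 3 were higher and 2 lower in RNAi, where 7.1% of all genes passed in either direction. Hr96, a nuclear receptor that controls triglyceride and cholesterol handling in the fly gut, had 92.1 and 80.0 CPM in RNAi 1 and 2, against 41.2 and 50.7 CPM in wild type 1 and 2. Both RNAi libraries lay above both wild-type libraries, and it rose 1.88-fold (log2 fold change 0.91, SE 0.17, edgeR adjusted p = 3.10e-04 with the set term). Sox21a, a factor of stem cells and enteroblasts that is needed for their differentiation, rose 1.86-fold (9.61 and 13.8 CPM in RNAi libraries, 4.57 and 8.44 CPM in wild-type libraries, adjusted p = 0.00477). The sister gene of nub, pdm2, fell by 0.69 on the log2 scale (6.83 and 15.98 CPM in RNAi 1 and 2, against 11.2 and 25.5 CPM in wild type 1 and 2, adjusted p = 0.0123), but without wild type 2 and the set term its log2 fold change was 0.05. Named after their values were seen, LamC, an A-type lamin gene, rose 1.45-fold (adjusted p = 0.0458) and the posterior gut factor gene cad fell by 0.58 on the log2 scale (adjusted p = 0.0308). Of 5 fits with a set term Hr96 passed in 5. Sox21a passed in 4, with an adjusted p of up to 0.123, and pdm2 in 4, with one of up to 0.203. LamC passed in 3, with an adjusted p of up to 0.287, and cad in 4, with one of up to 0.146.

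Without the set term 0 of these 17 were called by edgeR, with 1 at an unadjusted p under 0.05, and 0 by DESeq2 and limma-voom. The median log2 fold change of the list was 0.10 without the set term, beside 0.01 over all genes tested. Over all other settings the adjusted p ran from 4.49e-08 to 0.999993 for Hr96, from 1.78e-04 to 0.999993 for Sox21a, from 0.00411 to 0.999993 for pdm2, from 0.00173 to 0.999993 for LamC and from 0.0193 to 0.999993 for cad. The low GATAe level of RNAi 1 was met in other regional factors chosen after their values were seen: cad had 45.2 and 84.0 CPM in RNAi 1 and 2, against 78.9 and 107 CPM in wild type, and Ptx1 had 36.1 and 69.9 CPM in RNAi 1 and 2, against 60.2 and 61.6 CPM in wild type. RNAi 1 was the lowest library for GATAe, cad and Ptx1 alike, but cad and Ptx1 were picked for this likeness. For GATAd and zfh2 of the same list wild type 1 was the lowest library instead, at 18.3 and 5.22 CPM. The share of all genes with RNAi 1 lowest was not counted, so no shared fall can be read from these genes.

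Among POU and GATA relatives of nub and GATAe, 1 gene passed the test between the genotypes. Of 8 such genes 7 were tested, and pdm2, lower in RNAi, was the 1 that passed with the set term, beside 7.1% of all genes; none passed without it by edgeR, where 0 were at an unadjusted p under 0.05. The POU gene vvl had 1.35 and 1.79 CPM in RNAi guts and 2.18 and 2.06 CPM in wild type (log2 fold change -0.44, SE 0.46, adjusted p = 0.999993), and the POU gene acj6 had 1.99 and 0.408 CPM in RNAi guts and 0.484 and 0.808 CPM in wild type (0.95, SE 0.86, adjusted p = 0.999993). The list had a median log2 fold change of -0.05.

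Among genes of the microvillus and apical cytoskeleton, Myo28B1 was the 1 of 20 tested that passed with the set term, where 7.1% of all genes passed, and it was higher. Myo28B1, which encodes a myosin related to myosin VII of the mammalian brush border, had 82.7 and 268 CPM in RNAi 1 and 2, against 50.2 and 149.7 CPM in wild type 1 and 2. The gene was high in set 2 like Myo31DF and Myo61F, and within each set the RNAi library was above wild type. The fold change was 1.72 with the set term (log2 0.78, SE 0.18, edgeR adjusted p = 0.00247), and the adjusted p ran between 1.87e-05 and 0.999993 over the other settings. Without RNAi 2 and without the set term its log2 fold change was -0.32. The protocadherin gene Cad88C had 1.89 and 0.367 CPM in RNAi guts and 0.415 and 0.539 CPM in wild type (log2 fold change 1.28, SE 0.88, adjusted p = 0.999993), and qua, a villin-like gene, had 0.897 and 2.81 CPM in RNAi guts and 0.830 and 1.35 CPM in wild type (0.80, SE 0.69, adjusted p = 0.999993).

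Fim and Moe, both chosen after their values were seen, are described as further genes of this list. Fim, which encodes the actin bundler fimbrin, had 250.1 and 560.5 CPM in RNAi 1 and 2, against 212 and 437 CPM in wild type 1 and 2. Moe, which encodes the membrane-actin linker moesin, had 372 and 722 CPM in RNAi 1 and 2, against 424 and 737 CPM in wild type 1 and 2. Both were higher in the set 2 libraries of each genotype. In this list 8 of 20 genes were at least 1.5-fold higher in set 2 in both genotypes, beside 14.5% of all genes tested. The share among genes of like length was not taken here either, so this count cannot set the list apart from length. In both sets 5 of 20 were higher and 5 lower in RNAi, beside 30.5% and 30.9% of all genes tested. Its median log2 fold change was 0.01 without the set term, the same as over all genes tested to 2 decimals, and 0 of 20 were called or reached an unadjusted p under 0.05 by edgeR.

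Of the myosin heavy chain genes other than Myo31DF and Myo61F, 10 of 11 were matched and 9 tested, and Myo28B1 was again the 1 that passed with the set term, beside 7.1% of all genes. The myosin VII gene ck had 5.32 and 8.15 CPM in RNAi guts, against 2.73 and 7.09 CPM in wild type (log2 fold change 0.48, SE 0.53, adjusted p = 0.999993). Myo95E, another unconventional myosin gene, had 12.4 and 22.2 CPM in RNAi guts, against 9.48 and 18.0 CPM in wild type (0.34, SE 0.49, adjusted p = 0.999993). Without the set term 0 of 9 were called by edgeR, with 0 at an unadjusted p under 0.05 and a median log2 fold change of 0.15. In this list 6 of 9 were at least 1.5-fold higher in set 2 in both genotypes, beside 14.5% of all genes tested. The set ratio went with gene length, and the share among genes of like length was not taken. This count therefore cannot set myosin genes apart from length.

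Fatty acid oxidation genes, which Hnf4 is known to drive in fly larvae, had a median log2 fold change of -0.05 without the set term, and single genes ranged from -1.68 for Arc42 to 2.25 for Lip3. Of 16 tested, 1 was higher and 1 lower with the set term, beside 7.1% of all genes in either direction. Arc42, which encodes an acyl-CoA dehydrogenase, had 8.37 and 9.95 CPM in RNAi 1 and 2, against 38.2 and 20.6 CPM in wild type 1 and 2. Both RNAi libraries lay below both wild-type libraries, and it fell by 1.65 on the log2 scale with the set term (SE 0.25, edgeR adjusted p = 0.00152; without the term -1.68, adjusted p = 0.608). Lip3, a lipase gene and not an enzyme of oxidation itself, had 21.3 and 2.12 CPM in RNAi 1 and 2, against 3.74 and 0.987 CPM in wild type 1 and 2. It rose 4.49-fold with the set term (SE of the log2 fold change 0.30, adjusted p = 8.44e-06), although without RNAi 1 and the set term its log2 fold change was -0.22. The peroxisomal acyl-CoA oxidase gene Acox57D-d had 179.7 and 375 CPM in RNAi guts and 199.7 and 224 CPM in wild type (log2 fold change 0.39, SE 0.46, adjusted p = 0.999993 without the set term). Without the set term edgeR called 0 of 16, with 1 at an unadjusted p under 0.05. Fat body also uses these genes, and 7 fat body markers summed to 187 and 391 CPM in RNAi guts, against 209 and 215 CPM in wild type. Of these Yp1, a yolk protein gene, had 81.2 and 159.7 CPM in RNAi guts, against 69.3 and 73.4 CPM in wild type. It rose 1.59-fold with the set term (edgeR adjusted p = 0.0436), as 1 of 5 tested, beside 3.45% of all genes. Lsp1beta went the other way, with 1.47 and 9.95 CPM in RNAi guts, against 12.6 and 10.4 CPM in wild type, and was not called. For Yp2, Yp3 and apolpp the genotypes overlapped. The fat body markers' part in the result was not tested.

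Products that enterocytes make for digestion and uptake went both ways. In both sets 6 of 11 were higher and 2 lower in RNAi, beside 30.5% and 30.9% of all genes tested. The 2 were trypsin genes, neither called with the set term. alphaTry had 24217 and 18990 CPM in RNAi guts, against 32980.5 and 27424.5 CPM in wild type. lambdaTry had 1232 and 693 CPM in RNAi guts, against 1547 and 999.9 CPM in wild type. The list summed to 53598 and 40604 CPM in RNAi guts, against 60172 and 45296 CPM in wild type. Of 11 tested, 5 passed as higher and 0 as lower in the fit with sets, beside 3.45% and 3.65% of all genes. The median log2 fold change without the term was 0.46, beside 0.01 over all genes tested. The count and the median include Npc2e, described below, and the list was chosen with earlier results of these data known. They are therefore a description and no independent support. Npc1b, which the midgut needs for sterol uptake, had 283 and 514 CPM in RNAi 1 and 2, against 90.9 and 145 CPM in wild type 1 and 2. Both RNAi libraries lay above both wild-type libraries, and with the set term it rose 3.32-fold (edgeR adjusted p = 8.74e-09; without the term 3.37-fold, adjusted p = 0.626). Over the other settings its adjusted p ran between 9.51e-20 and 0.999976. The amylase gene Amy-d had 2036 and 922 CPM in RNAi guts, against 1002 and 389 CPM in wild type, and rose 2.19-fold with the set term (adjusted p = 1.67e-04), but reads of Amy-d can be shared with its near-identical copy Amy-p, which had 7491 and 4322 CPM in RNAi guts and 8645 and 4312 CPM in wild type. The sterol-binding gene Npc2e had 29 and 15 counts in RNAi guts and 1 and 0 in wild type. With the libraries of a genotype pooled, the ratio was 31.6 after scaling (exact interval 5.39 to 1277, counting error only). Npc2e also passed with the set term (edgeR adjusted p = 0.0151), but it met the count filter through its RNAi libraries alone. A gene kept in that way can hardly come out lower, so its place among the 5 called as higher carries no weight. The sterol-binding gene Npc2f and the maltase gene Mal-A1 also passed (adjusted p = 0.0112 and 0.0194). Without the set term edgeR called 0 of 11, with 2 at an unadjusted p under 0.05, DESeq2 called 1, Npc1b, and limma-voom called 0.

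**Figure D5:**
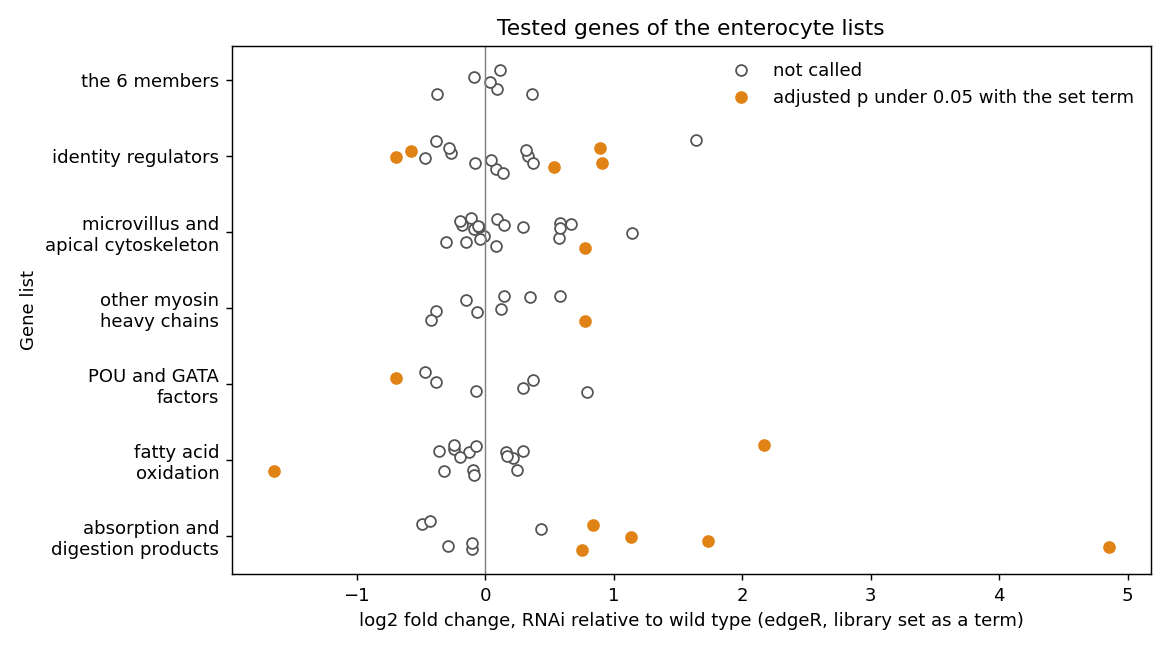
The log2 fold change of every tested gene, RNAi relative to wild type from edgeR with the library set as a term, for the 6 enterocyte genes and for 6 lists of related genes, with points spread vertically for legibility. Filled points passed an adjusted p of 0.05, as did 7.1% of all genes tested. They are 0 of the 6 genes, 5 of 17 identity regulators and 5 of 11 absorption and digestion products, the latter all higher. In the other lists they are 1 of 20 microvillus genes, 1 of 9 myosin genes, 1 of 7 POU and GATA genes and, of 16 fatty acid oxidation genes, 1 higher and 1 lower. The lists were chosen with earlier results of these data known. Of the latter, Npc2e met the count filter through its RNAi libraries alone.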

How the data were processed

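The authors deposited raw read counts per gene, 1 column per library and not normalized. STAR, FastQC and the BDGP6 build are listed, without versions, per the submitters' processing notes. How reads were assigned to genes, and whether by strand, is not given in the sources used here. Identifiers were matched to symbols (17405 of 17510), and positions and merged exon lengths came from an Ensembl BDGP6 annotation. With R 4.3.3 and edgeR 4.0.16, filterByExpr left 9637 genes, libraries were scaled by TMM, and the robust quasi-likelihood test compared the genotypes over all 4 libraries, with Benjamini-Hochberg adjustment over all genes tested and a threshold of 0.05. Log2 CPM used a prior count of 2. Intervals of fold changes are at 95% from the moderated degrees of freedom. Alternatives used other scalings, filters, DESeq2 1.42.0, limma-voom (limma 3.58.1), each library left out, a term for the library set, and removal of a loess trend on exon length (span 0.5), the last added after the data were seen. The code was tested on simulated counts.

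The 6 genes, the lists and the set term were chosen with earlier results of these data known. Named genes were, per list, up to 3 called with the set term by size of change, then those with the smallest p up to 3. Of 140 list and marker names, 2 (esg and zip) matched no identifier in the table.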

Additional observations from a re-analysis of the deposited data

How the results depend on the processing

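None of the 6 genes was called by edgeR, DESeq2 or limma-voom under any of the 19 other settings, and GATAe kept its sign in all 19. No paired analysis was possible because the labels give no replicate numbers; the library set, read from the counts, took that place. Leaving out each library gave log2 fold changes of -0.39 to 0.97 for nub, -0.92 to 1.03 for Myo31DF, -0.56 to 0.73 for Myo61F, -0.31 to 0.10 for Hnf4, -0.78 to -0.01 for GATAe and -0.15 to 0.22 for mex1. Hnf4 also turned to 0.0244 with library size alone and 0.0141 with that and the set term; library size alone moved the median of all genes to 0.11, against 0.01. The calls over all genes, 12 by edgeR on genotype alone, were 1 with upper-quartile factors, 1 with a minimum mean of 5 CPM, 120 with no count filter, 58 to 120 with 1 library left out, 92 with DESeq2 and 34 with the length trend removed. With the set term they were 684 with edgeR, 409 with DESeq2, 799 with limma-voom, 968 with library size alone and 688 with the length trend removed. Of 76 list genes matched, edgeR on genotype alone called 0, with 0 to 2 when 1 library was left out: Lip3 and Npc2e without RNAi 2, and Lip3, the 1 call, without wild type 1. DESeq2 called 1. With the set term edgeR called 13, Npc2e among them, beside 7.1% of all genes. With that term DESeq2 called 8, limma-voom 13, edgeR with library size alone 15 and with the length trend removed 12, beside the calls over all genes given above. Of the 76, Hey, ninaC and pnr were not tested by edgeR on genotype alone or with the set term. With the longest transcript as length, Hnf4 averaged 22.1 CPM per kilobase, against 15.95 with merged exons, and mex1 1026, against 871. The cause of these shifts was not tested. Depth was lowest in wild type 2, and with 2 libraries a genotype the spread between libraries limits the intervals more than counting does.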
